A study of Mus musculus with 14 samples.

Results

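The data described here are the 7 arrays of control mice, out of 14 arrays in all, chosen by their titles as 3 control fasted and 4 control fed arrays. The 7 arrays of knockout mice serve only for comparison. Every array holds RNA of the hypothalamus of mice 12 weeks old on a mixed background of C57Bl/6J, FVB/N and 129, measured on an Affymetrix HT MG-430 PM array from 150 ng of total RNA. Fasted mice had no food for 16 h and the others were random fed. The knockout mice lack Mfn1 in the cells that express pro-opiomelanocortin (POMC). The labels call the other mice control and do not say which alleles they carry, nor their sex or the hour of collection, nor whether 1 array is 1 mouse. The p-values therefore measure the spread between these arrays, which may in part be technical.

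The hypothalamus reads the body's energy state through hormones and nutrients in the blood. Its arcuate nucleus holds neurons that promote feeding, which make neuropeptide Y, and neurons that limit feeding, which make the POMC peptides. In fasted rodents the adrenal glands release more glucocorticoid, a steroid that enters every cell of the brain, binds the glucocorticoid receptor and changes transcription from the receptor's sites in DNA.

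The numbers in the sample titles of the fasted control arrays are all lower than those of the fed ones, and the same holds in the knockout arrays. Feeding state and number series therefore cannot be told apart within either genotype. Across genotypes, knockout fed replicate 1 has a number between those of control fasted replicates 1 and 2. That array was compared with the mean of the other knockout fed arrays and the mean of the knockout fasted arrays. It was nearer to the fed mean for 82.2% of the 404 genes that differed in control mice, described below. The share was 92.2% of those higher and 66.9% of those lower in fasted controls, against 55.0% of all genes. It rests on a single array, and an effect of the number series was not tested. Control fed replicate 1 stood apart from the other fed arrays: its score of cortex and hippocampus markers, the mean of the members' centred log2 levels, was 0.78, against -0.16 to -0.02 on the other fed arrays. Its choroid plexus score was 1.36, against -0.73 to -0.41, and its hypothalamus score was -0.38, against -0.02 to 0.18. All 17 hypothalamus markers were measured, among them Hcrt, the orexin precursor, at 9.71 to 11.27, and Pmch, the precursor of melanin-concentrating hormone, at 12.06 to 12.59, against 3.64 for the median of 23 probe sets without a target. The medians of the 7 arrays were 4.99 to 5.02, and 2 arrays correlated across probe sets with a Pearson's r of 0.9909 to 0.9964.

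Of 17097 genes tested, 404 differed between fasted and fed control mice at an adjusted p of 0.05 in limma, which is 2.36%. The 244 higher genes (1.43%) had a median log2 difference of 0.56, and the 160 lower genes (0.936%) a median of -0.50. The gene lists described below were written with earlier results of these data known. By their calls, the hypothalamus of fasted mice held more RNA of most listed glucocorticoid-responsive genes. It held less of some interferon-induced, microglial and oligodendrocyte genes. The lists of respiratory, ribosomal and synaptic genes held no call and had medians near 0. The smallest difference that passed was 0.26, and 176 of the 404 genes differed by less than 0.5, a fold of 1.41. Without control fed replicate 1, 292 genes passed, 185 of them higher and 107 lower, and 252 were among the 404. The count depended on single arrays: it was 203 without fasted replicate 1, 243 without fasted replicate 3, and 203, 189 and 204 without fed replicates 2, 3 and 4. Of the genes named below, 147 passed and 70 of those failed to pass when 1 or more of the 7 arrays was left out in turn.

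The fasting response had a long upper tail. A log2 difference over 1 was reached by 52 genes upward and 18 downward, and one over 2 by 5 genes upward and 0 downward. At a lower bound the order of the directions turned: 893 genes were higher and 1142 lower by more than 0.25. Over all genes the median difference was -0.005, the interquartile range ran from -0.09 to 0.08, and the 1st and 99th percentiles were -0.54 and 0.58. Of the 404 genes that passed, 0 had fasted and fed arrays that overlapped. A further 2415 genes did not overlap and did not pass, out of 2819 of all genes tested whose groups did not overlap, or 16.5%. The share of calls was lowest among genes of low level. Among the 3420 genes of lowest mean level 0.0585% passed, among 3419 of middle level 4.04% and among the 3420 of highest level 2.69%.

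**Figure D1:**
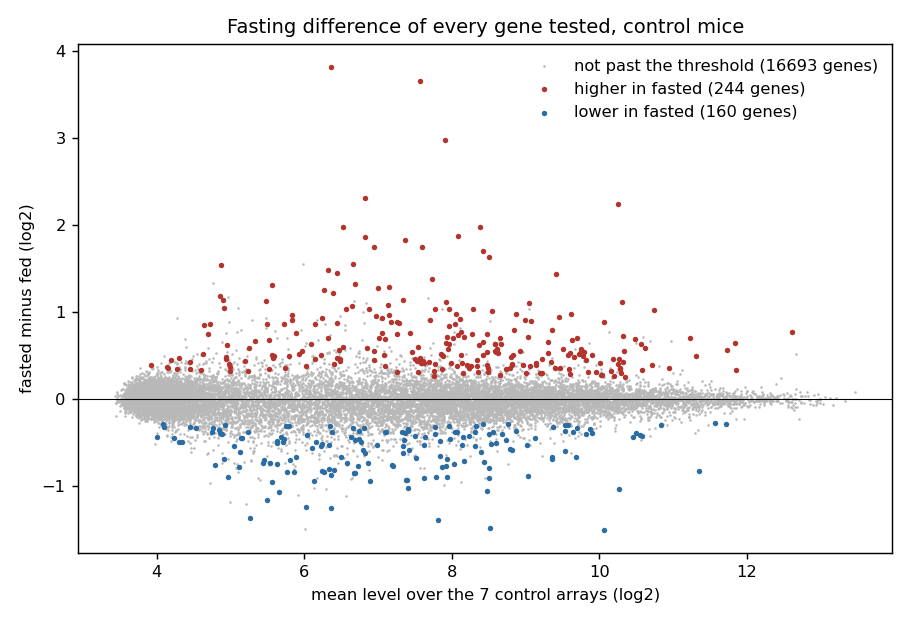
Each point is 1 of 17097 genes, with its mean log2 level over the 7 control arrays on the horizontal axis and its log2 difference between fasted and fed arrays on the vertical axis. Red points are the 244 genes that were higher and blue points the 160 that were lower at an adjusted p of 0.05, and the differences over 2 all lie upward.

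Glucocorticoid-responsive genes had the highest median and the highest share of calls of all lists. Of 32 measured members of that list, 24 rose (75%) and 0 fell, against 2.36% of all genes in either direction, and the list's median log2 difference was 1.03 against -0.005 over all genes. Sgk1 encodes a kinase that governs ion channels and transporters. It stood at 11.27, 11.60 and 11.76 on the fasted arrays and at 9.42, 9.25, 9.22 and 9.29 on the fed arrays, on the log2 scale. The groups were far apart, and the log2 difference was 2.25 ± 0.11 (SE; adjusted p = 0.00023 in limma). Fkbp5, a cochaperone that lowers the receptor's affinity for the hormone, was at 9.20, 9.37 and 9.60 in fasted and at 7.76, 7.83, 7.65 and 7.51 in fed mice. It rose by 1.70 ± 0.11, a fold of 3.25. The receptor itself went the other way: Nr3c1 was at 9.43, 9.35 and 9.33 in fasted and at 9.60, 9.63, 9.71 and 9.71 in fed mice. Its difference was small, at -0.29 ± 0.06 (adjusted p = 0.044 in limma), and fell short of the threshold in 10 of the 16 alternative analyses. Fkbp5 and Nr3c1 were the 2 calls among 9 measured receptors and chaperones (22.2%, against 2.36% of all genes).

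The promoters of some of these genes carry the palindrome to which the glucocorticoid receptor can bind. The pattern searched on both strands was GNACA and TGTNC with 3 bases between them, where N is any base. It occurred in 8 of 251 promoters of the genes that rose (3.19%), in 0 of 161 promoters of the genes that fell, and in 67 of 17065 promoters of all genes tested (0.393%). Each promoter is the stretch from 250 bases before to 50 after a RefSeq start site of GRCm38.p6, and 2 of the 8 belong to the same site of Fam107a. The windows of Sgk1 (chr10:21993677-21993739, plus strand), Mt1 (chr8:94178970-94179032, plus strand), Fam107a (chr14:8309860-8309922, minus strand), Txnip (chr3:96557760-96557822, plus strand) and Folh1 (chr7:86776025-86776087, minus strand) are shown because these genes rose and hold the pattern, in capitals, upstream of the start site.
Sgk1: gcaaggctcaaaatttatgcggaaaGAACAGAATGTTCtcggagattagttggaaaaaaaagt
Mt1: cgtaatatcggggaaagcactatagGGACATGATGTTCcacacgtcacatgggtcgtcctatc
Fam107a: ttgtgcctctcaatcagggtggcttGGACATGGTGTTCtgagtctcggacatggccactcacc
Txnip: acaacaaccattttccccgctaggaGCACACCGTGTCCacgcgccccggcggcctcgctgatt
Folh1: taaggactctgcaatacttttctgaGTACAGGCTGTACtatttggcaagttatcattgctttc
Counted from the start site, the first base of the pattern lay at -188 in Sgk1, -94 in Mt1, -172 in Txnip and -198 in Folh1. Car14 and Kcna5, which also rose, held it as well. Fam107a, Folh1 and Car14 were named after their values were seen. A match is a description of these letters and not evidence of binding.

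Mt1, a metallothionein that binds zinc and copper, was at 13.01, 13.05 and 13.10 in fasted and at 12.26, 12.31, 12.31 and 12.24 in fed mice. Spread within each group was small beside the gap, and the log2 difference was 0.77 ± 0.05 (adjusted p = 0.00049 in limma). The mean of its 2 probe sets rose by 0.78 with an adjusted p of 0.065. Fam107a, an actin-associated gene long known to respond to glucocorticoids, rose by 0.65 ± 0.06, from 11.47 to 11.67 on the fed arrays to 12.21 to 12.23 on the fasted ones. Tsc22d3, the anti-inflammatory leucine zipper protein GILZ, rose by 1.12 ± 0.11. Nfkbia, the inhibitor that holds NF-kB in the cytoplasm, rose by 1.63 ± 0.18, and the transcription factor Cebpd by 1.49 ± 0.15. Tsc22d3, and in the list also Klf15 (0.93), Htra1 (1.03), Errfi1 (0.80) and Tiparp (0.40), which all rose, were named after their values were seen. Members that did not pass included the phosphatase Dusp1 (1.03, adjusted p = 0.067 in limma) and Ctla2a (1.00, adjusted p = 0.11). Lcn2, lipocalin 2, stood at 3.73 to 4.22, near the level of probe sets without a target. Ctla2a and Lcn2 were named after their values were seen. The list was written with earlier results of these data known, so its count is no independent evidence of its direction.

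Members with a log2 difference over 1.8 also included Plin4, Cdkn1a and Mfsd2a, whose values stand with their other lists, Sult1a1, a sulfotransferase (2.98 ± 0.12), Arrdc2, an alpha-arrestin (2.31 ± 0.15), Sgk3, a relative of Sgk1 (1.87 ± 0.15), and Zbtb16, a transcription factor (1.87 ± 0.30). Zbtb16 stood at 7.47, 7.56 and 8.65 in fasted and at 6.46, 5.85, 5.65 and 6.14 in fed mice. The groups did not overlap, fasted replicate 3 was the highest, and the call failed without fed replicate 2, 3 or 4. Of 6 alpha-arrestins, adaptors that move membrane proteins inward, 2 rose (33.3%, against 1.43% of all genes), Arrdc2 and Txnip.

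The largest rise was that of Plin4, a perilipin that coats lipid droplets, which stood at 8.41, 8.21 and 9.0 in fasted and at 4.70, 4.90, 4.79 and 4.51 in fed mice. Its log2 difference was 3.82 ± 0.18. Around it, 4 of 21 measured lipid droplet proteins and lipases rose and 1 fell (23.8% in either direction, against 2.36% of all genes). Pnpla7, a lysophospholipase, was at 7.91, 7.88 and 7.86 in fasted and at 6.56, 6.75, 6.58 and 6.50 in fed mice. The fasted arrays were nearly equal, and the log2 difference was 1.29 ± 0.07. Angptl4, a secreted inhibitor of lipoprotein lipase, rose by 1.27 ± 0.15 and Plin3 by 0.56 ± 0.07. Plin4 and Angptl4 are also on the glucocorticoid list. Abhd5, the coactivator of adipose triglyceride lipase, fell by 0.47 on the log2 scale, from 7.42 to 7.64 down to 6.95 to 7.2, with an adjusted p of 0.034 in limma. Plin2, another droplet coat protein, was lower by a similar size without passing (-0.45, adjusted p = 0.071 in limma), and was named after its values were seen. The members of the lipid droplet list that moved thus moved in both directions.

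Some genes of fuel use rose. Of 24 measured genes of fatty acid oxidation and ketone body metabolism, 3 rose (12.5%, against 1.43% of all genes) and 0 fell. They were Cpt1a, which admits fatty acids to mitochondria (0.38 ± 0.08), Eci2, an isomerase of unsaturated fatty acids (0.41 ± 0.07), and Pdk4, the kinase that shuts off pyruvate dehydrogenase (1.22 ± 0.25). The list's median was 0.01. Pdk4, which is also on the glucocorticoid list, varied widely among the fasted arrays. They stood at 6.59, 7.75 and 6.91, against 5.67 to 6.09 on the fed arrays. Slc2a1, the glucose transporter of the blood-brain barrier, rose by 0.73 ± 0.09, and its fasted arrays at 10.64, 10.65 and 10.94 lay above the fed range of 9.92 to 10.09. Pdk4 and Slc2a1 were the 2 of 32 measured genes of glucose transport and glycolysis that passed (6.25%, against 2.36% of all genes). The neuronal transporter Slc2a3 was at 10.78 to 10.89 in fasted and 10.72 to 10.89 in fed mice. Acacb, the mitochondrial acetyl-CoA carboxylase, was the 1 of 22 genes of fatty acid synthesis that passed (0.46 ± 0.09). That is 4.55%, against 2.36% of all genes. Idh2, the mitochondrial NADP-dependent isocitrate dehydrogenase, was the 1 of 17 genes of the tricarboxylic acid cycle to pass (0.56 ± 0.08), or 5.88%. Mid1ip1, a protein that stimulates acetyl-CoA carboxylase, fell by 0.38 on the log2 scale. Slc2a3 was named after its values were seen.

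No gene of cholesterol synthesis passed. Of 21 measured genes of cholesterol synthesis 14 were below 0 and 7 above, 0 passed the threshold in limma (10 at an unadjusted p under 0.05), and the median was -0.16 against -0.005 over all genes. The list score was 0.054, -0.067 and -0.16 on the fasted and 0.074, -0.059, 0.072 and 0.09 on the fed arrays, so the groups overlapped. Fdps, farnesyl diphosphate synthase, had the smallest p, with 9.34, 9.18 and 9.09 in fasted and 9.51, 9.50, 9.57 and 9.45 in fed mice. These ranges did not overlap, and the adjusted p was 0.074 in limma. Among 12 measured genes of cholesterol efflux and transport, Apod, a lipocalin that carries lipids, rose by 0.57 ± 0.07 and 0 fell. That call made up 8.33% of the list, against 2.36% of all genes. The elongase Elovl6, chosen after its values were seen, had a log2 difference of -0.41 with an adjusted p of 0.085.

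**Figure D2:**
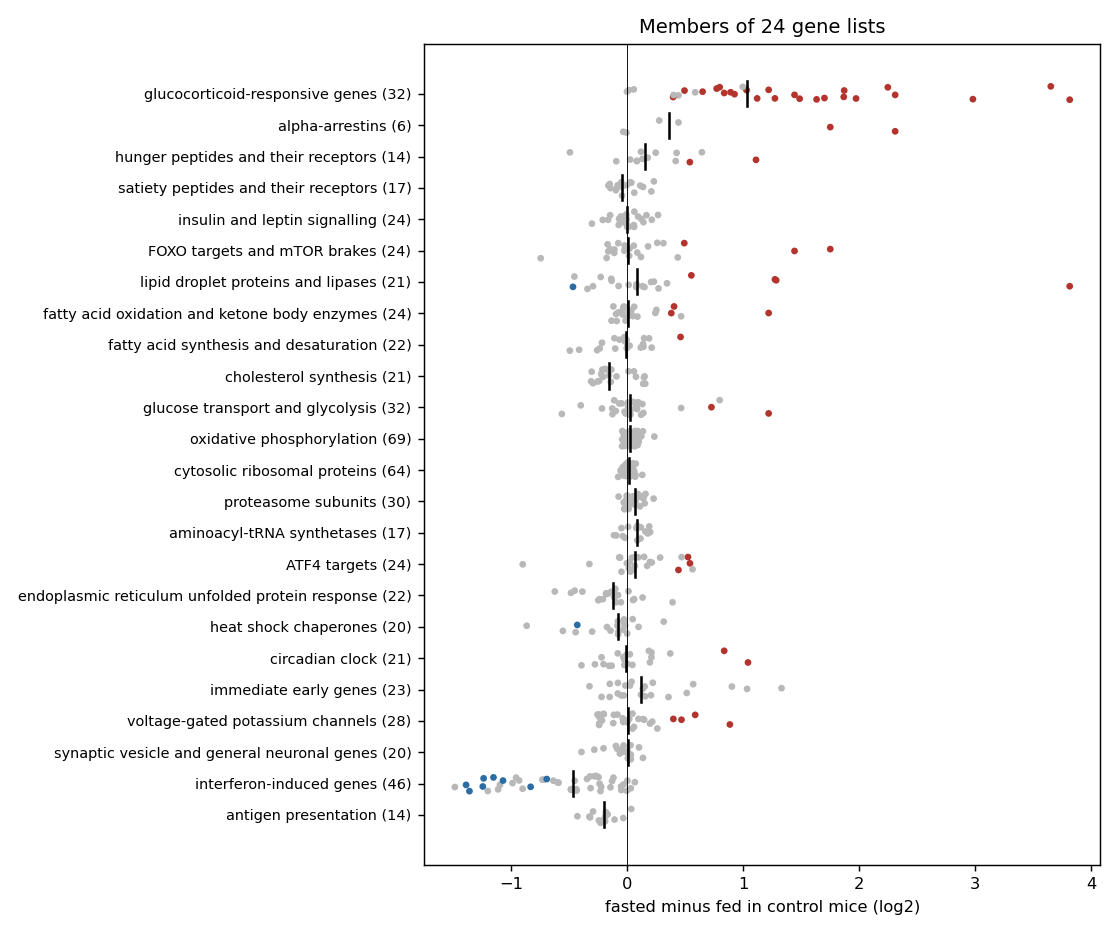
Each row is a gene list with the number of measured members in brackets, each point is a member's log2 difference between fasted and fed control arrays, and the black bar is the list's median. Red points rose and blue points fell at an adjusted p of 0.05. The median is 1.03 for glucocorticoid-responsive genes and -0.47 for interferon-induced genes. The 69 genes of oxidative phosphorylation and 64 ribosomal protein genes gather near 0, with medians of 0.025 and 0.016.

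Among the feeding peptides measured, only Npy rose past the threshold. Agrp and Galp, also on the list of hunger peptides, had no probe set that named them alone and were not measured. Npy, the peptide of hunger-promoting neurons, was at 9.74, 9.43 and 9.90 in fasted and at 8.47, 8.65, 8.65 and 8.54 in fed mice. It rose by 1.11 ± 0.11 (adjusted p = 0.0028 in limma). Acvr1c, the activin receptor ALK7, was at 7.77, 7.78 and 7.76 in fasted and at 7.18, 7.39, 7.14 and 7.2 in fed mice, a rise of 0.54 ± 0.07. These were the 2 of 14 measured genes of hunger peptides and their receptors that passed (14.3%, against 2.36% of all genes), and 12 of the 14 were above 0. Ghsr, the ghrelin receptor, chosen after its values were seen, was at 4.48, 4.37 and 4.63 against 4.05, 3.90, 4.28 and 4.03. Its groups did not overlap, but the adjusted p was 0.075 in limma.

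Of 17 measured satiety peptides and receptors 0 passed, with a median of -0.04. Mc4r and Nucb2 of that list were not measured. Pomc was at 6.48, 6.82 and 7.27 in fasted and at 5.68, 7.15, 7.55 and 7.41 in fed mice. Fed replicate 1 was the lowest array, the groups overlapped with and without it, and the log2 difference was -0.09 ± 0.43. Without that array it was -0.51, with an adjusted p of 0.26 in limma. Cartpt, which many POMC neurons also make, differed by 0.23 ± 0.22. Other hypothalamic peptides overlapped as well: Hcrt differed by 0.65 ± 0.31, Pmch by 0.18 ± 0.12, vasopressin (Avp) by 0.72 ± 0.41, oxytocin (Oxt) by 0.16 ± 0.17, corticotropin-releasing hormone (Crh) by 0.27 ± 0.16 and thyrotropin-releasing hormone (Trh) by -0.03 ± 0.15. Avp in fed replicate 1 stood at 9.06, against 10.46 to 11.02 on the other fed arrays and 10.80 to 11.16 on the fasted ones. The larger standard errors of Avp and Pomc mean that a difference in them was less well resolved than in Npy.

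Among 24 measured FOXO targets and brakes on the growth kinase mTOR, 3 rose (12.5%, against 1.43% of all genes) and 0 fell: Ddit4 (1.44 ± 0.14) and Sesn1 (0.49 ± 0.07), which both restrain mTOR, and Txnip (1.75 ± 0.31), an arrestin that removes glucose transporters from the cell surface. Ddit4 is also on the glucocorticoid list. Txnip was at 8.04, 8.28 and 9.48 in fasted and at 7.15, 6.76, 6.66 and 6.82 in fed mice, so 1 fasted array accounts for most of the spread. The median of the FOXO and mTOR list was 0.01. Of 24 genes of insulin and leptin signalling 0 passed, with a median of -0.001. The 2 with the smallest p were the receptor Igf1r (0.27 ± 0.07, adjusted p = 0.10 in limma) and the kinase Akt2 (-0.30 ± 0.09, adjusted p = 0.15).

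Among 24 targets of ATF4, the factor of the amino acid response, 3 rose (12.5%, against 1.43% of all genes) and 0 fell. Slc7a5, which carries large neutral amino acids, was at 8.76, 8.79 and 8.83 in fasted and at 8.24, 8.22, 8.26 and 8.28 in fed mice. Each group was tight, and the log2 difference was 0.54 ± 0.05 (adjusted p = 0.0021 in limma). Psat1 of serine synthesis rose by 0.53 ± 0.07 and Cbs, which makes cystathionine, by 0.44 ± 0.07. The list's median was 0.07. Of 17 aminoacyl-tRNA synthetases 0 passed, with a median of 0.09.

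The lists of large housekeeping complexes had medians near 0. Of 69 measured genes of oxidative phosphorylation 0 passed, with a median of 0.03 (53 above 0 and 16 below), and of 64 cytosolic ribosomal protein genes 0 passed, with a median of 0.02. Of 30 proteasome genes 0 passed, with a median of 0.07, and Psmb7 among them was at 10.71, 10.83 and 10.65 against 10.57, 10.54, 10.44 and 10.45. Centring the arrays on their medians raised the median of oxidative phosphorylation to 0.04 and that of the proteasome to 0.08. The size of these small shifts thus moved with the scaling, while their direction stayed. The oxidative phosphorylation score was 0.012 to 0.029 on the fasted and -0.028 to -0.008 on the fed arrays. For the proteasome it was 0.023 to 0.044 and -0.044 to -0.011. Neither score was tested. Mitochondrial fusion and fission gave 0 calls among 13 genes: Mfn1, the gene deleted in the knockout mice, was at 9.05 to 9.07 in fasted and 8.99 to 9.10 in fed control mice, and Mfn2 differed by 0.15 ± 0.07.

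Protein folding genes were mostly below 0, and those of inflammation and antioxidant defence mostly above. Of 22 genes of the unfolded protein response 17 were below 0 and 0 passed, with a median of -0.12. The list score was -0.134 to -0.035 on the fasted and -0.039 to 0.197 on the fed arrays, so the groups overlapped. Calr, the chaperone calreticulin, was at 10.80, 10.88 and 10.88 in fasted and at 11.05, 11.19, 11.08 and 11.04 in fed mice, ranges that did not overlap, with an adjusted p of 0.091 in limma. Of 20 heat shock chaperones 16 were below 0, and 1 fell (5.0%, against 0.936% of all genes). It was Cryab, the small heat shock protein of oligodendrocytes and astrocytes (-0.43 ± 0.07). The heat shock score overlapped too, at -0.119 to -0.039 on the fasted and -0.046 to 0.208 on the fed arrays. Fed replicate 2 was the highest array in both scores. Among 25 genes of inflammation and gliosis 18 were above 0, with a median of 0.15, and 2 rose (8.0%, against 1.43% of all genes). They were Nfkbia and Cebpd, which are also on the glucocorticoid list. In the list of 27 antioxidant genes 18 were above 0, with a median of 0.05, and Srxn1, sulfiredoxin, rose by 0.36 ± 0.07. It was the only call there (3.7%, against 1.43% of all genes).

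Growth arrest and clock genes held calls, and immediate early genes held none. Cdkn1a, the cell cycle inhibitor p21, was at 9.24, 9.49 and 10.24 in fasted and at 6.25, 6.07, 5.92 and 5.78 in fed mice, a log2 difference of 3.65 ± 0.22. Ccng1, cyclin G1, rose by 0.28 ± 0.06 and Ccnd1, cyclin D1, fell by 0.72 on the log2 scale. These were the 3 of 18 measured genes that passed in the list of growth arrest genes, which also holds cyclins (16.7%, against 2.36% of all genes). In the clock list Per1 (0.84 ± 0.12) and Ciart (1.04 ± 0.20) were the 2 of 21 genes that rose (9.52%, against 1.43% of all genes). Per1 is on the glucocorticoid list too. Of 23 immediate early genes 0 passed. Fos, the usual marker of recent neuronal activity, was at 8.88, 9.07 and 9.16 in fasted and at 7.90, 8.39, 8.66 and 7.58 in fed mice, and its log2 difference of 0.90 ± 0.24 had an adjusted p of 0.10 in limma.

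Of 28 measured voltage-gated and related potassium channel genes 4 rose (14.3%, against 1.43% of all genes) and 0 fell: Kcna1 (0.59 ± 0.09), Kcna5 (0.89 ± 0.18), the leak channel Kcnk1 (0.40 ± 0.07) and the calcium-activated channel Kcnn2 (0.47 ± 0.08). Kcna1 stood at 10.84 to 11.04 in fasted and at 10.23 to 10.56 in fed mice, with no overlap. Each of these 4 calls failed without some single arrays, that of Kcna1 in 4 and those of the others in 6 of 16 alternatives. Of 24 sodium and calcium channels, 17 GABA and glycine receptors, 20 glutamate receptors, 20 synaptic vesicle and general neuronal genes, 12 transmitter genes and 25 transcription factors of hypothalamic nuclei, 0 passed in each list. Glutamate receptors were mostly lower, with 17 of 20 below 0 and a median of -0.10.

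Other lists held 0 to 2 calls each. Of 9 genes of thyroid hormone action 2 rose (22.2%, against 1.43% of all genes), Klf9 and Hr, a corepressor that thyroid hormone induces (0.86 ± 0.14). Hr was at 5.13, 4.78 and 5.47 in fasted and at 4.27, 4.34, 4.17 and 4.30 in fed mice, and its call failed without fasted replicate 1 or any 1 of the fed arrays (adjusted p of 0.060 to 0.086 in limma). Dio2, which makes the active hormone, had a larger spread, with 8.28, 8.91 and 8.56 against 8.11, 7.92, 7.76 and 7.25 and an adjusted p of 0.10. Ccn2 was the 1 of 19 matricellular and TGF-beta genes to pass (5.26%). Mt1 was the 1 of 6 genes of metallothioneins and zinc handling and Fabp7 the 1 of 6 brain fatty acid binding proteins (16.7% each). Over all genes 2.36% passed. In the lists of 33 autophagy and lysosome genes (median 0.04), 16 cell division genes (median -0.02), 17 neuroendocrine peptides (median 0.05), 11 prohormone processing genes (median 0.04) and 4 cold-inducible RNA-binding proteins (median 0.15) 0 passed.

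Many calls were small and even. Ptpn11, the phosphatase SHP2 that relays growth factor and leptin signals, was at 11.14, 11.18 and 11.14 in fasted and at 10.80, 10.80, 10.82 and 10.74 in fed mice. The gap between the groups was wider than the range within either, and the log2 difference was 0.36 ± 0.05 (adjusted p = 0.011 in limma). Another probe set of Ptpn11 differed by 0.11 and did not pass (adjusted p = 0.50 in limma). Klf9, a transcription factor that responds to thyroid hormone and to glucocorticoids, rose by 0.50 ± 0.07, Pgm1, which joins glycogen and glycolysis, by 0.48 ± 0.06, and Tns3, a tensin of focal adhesions, by 0.46 ± 0.07. Cyp2d22 (0.50), Tmem232 (0.45), Zfp740 (0.46), Lurap1l (0.47) and Ptprm (0.40) rose to a similar degree. Another probe set of Tns3 differed by -0.06 and did not pass (adjusted p = 0.78 in limma). In the other direction Phldb1 was at 8.47, 8.46 and 8.48 in fasted and at 8.95, 8.94, 8.85 and 9.0 in fed mice, a difference of -0.47 ± 0.06. Marcks, a substrate of protein kinase C that binds actin, fell by 0.41 on the log2 scale, Prkg2, a cGMP-dependent kinase, by 0.46, the orphan receptors Gpr12 and Gpr37 by 0.43 and 0.40, and Nrep by 0.37. Wipf1 (-0.36), Rnf122 (-0.37) and Prag1 (-0.42) fell as well.

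**Figure D3:**
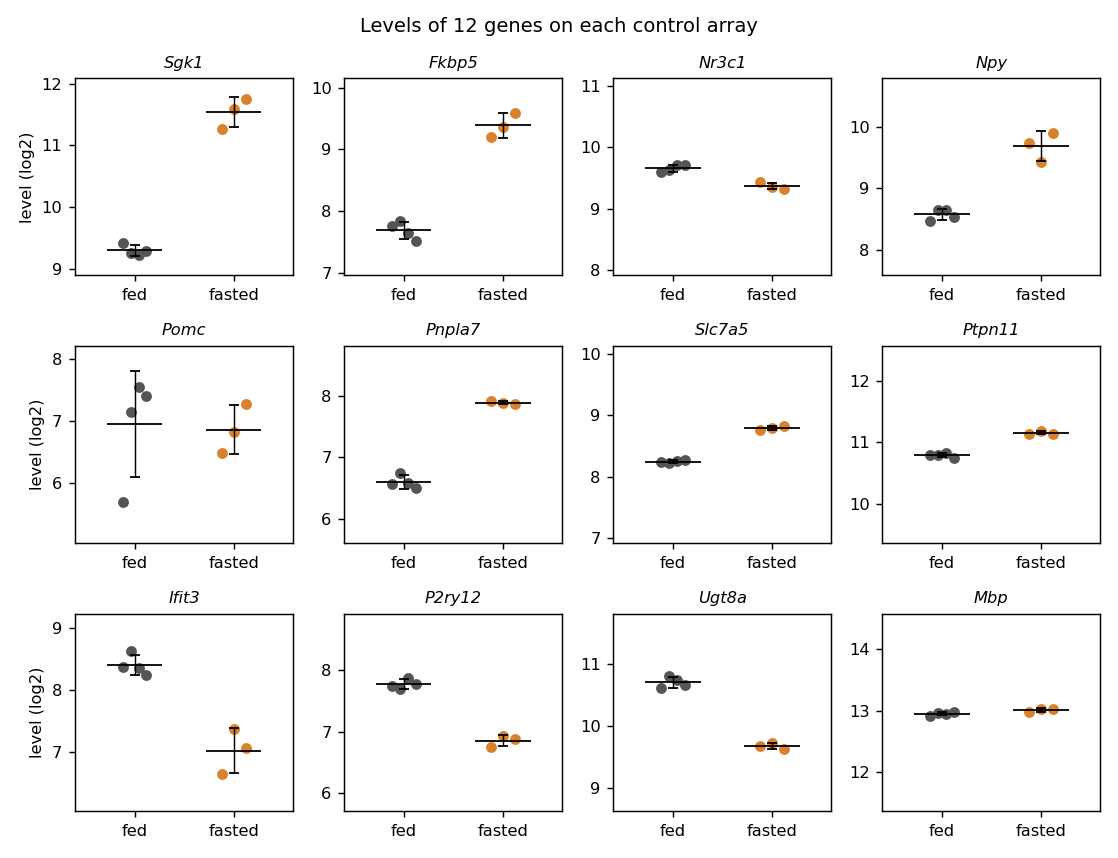
The log2 level of 12 genes on the 4 fed and 3 fasted control arrays; each point is an array, the wide line the mean and the error bar the SD, and each vertical axis spans the same number of log2 units. The fasted and fed points are separate for 10 genes, among them Ptpn11 with a difference of 0.36 by its brightest probe set, and overlap for Pomc and Mbp.

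Outside the lists 318 genes passed, and those named in this paragraph were chosen after their values were seen. Several encode enzymes and carriers of amino acid and carnitine metabolism: Prodh, which starts proline breakdown, was at 8.28, 8.30 and 8.50 in fasted and at 7.46, 7.35, 7.32 and 7.18 in fed mice, a rise of 1.03 ± 0.09. Aass of lysine breakdown rose by 0.68, the alanine transaminase Gpt2 by 0.51, Bbox1, which makes carnitine, by 0.70, and the aspartate-glutamate carrier Slc25a13 by 0.70. Pygm, which releases glucose from glycogen, rose by 0.60, Gpd1, the glycerol 3-phosphate dehydrogenase, by 0.94, and the creatine transporter Slc6a8 by 0.50. The adiponectin receptor Adipor2 rose by 0.91 ± 0.10 and the exporter Abcc4 by 1.04 ± 0.09. Mertk, a receptor by which glia engulf debris, was at 8.28, 8.50 and 8.79 in fasted and at 7.36, 6.94, 7.15 and 7.11 in fed mice, a rise of 1.38 ± 0.14. Heph, a copper-dependent ferroxidase, rose by 1.12, and Hif3a, an inhibitory relative of the hypoxia factors, by 1.14. Plekhf1 (1.75), Net1 (1.55) and Phyhd1 (1.83) were among the largest rises of all, of which Phyhd1 follows from the rule on the largest changes. Serpinh1, the collagen chaperone HSP47, fell by 1.02 on the log2 scale.

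Further genes outside the lists, also chosen after their values were seen, included genes of peroxisomes, of signalling at the cell surface and of immunity. Nudt19, a peroxisomal hydrolase of coenzyme A, was at 10.20, 10.25 and 10.09 in fasted and at 9.21, 9.29, 9.16 and 9.16 in fed mice. It rose by 0.97 ± 0.06, and the peroxisomal membrane protein Pxmp2 by 0.91 ± 0.11. The Wnt receptors Fzd2 and Fzd4 rose by 0.96 and 0.63, and the ligand Wnt7a fell by 0.77 on the log2 scale. The endothelin receptor Ednrb fell by 0.67 and the matrix proteoglycan Ncan by 0.52. F3, the tissue factor that starts clotting, rose by 0.90 ± 0.09 and Plat, the tissue plasminogen activator, by 0.64 ± 0.10. Ugt1a6a and Ugt1a9, glucuronosyltransferases that share most exons so that their probes may not tell them apart, rose by 0.94 and 0.87. Among immune genes Rnf213 fell by 0.80, the macrophage protein Mpeg1 by 0.65, the DNA sensor adaptor Sting1 by 0.38, the leukocyte actin regulator Coro1a by 0.36 and the phosphatase Ptpn6 by 0.33 on the log2 scale.

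Interferon-induced genes fell in part. Of 46 measured members 8 fell (17.4%) and 0 rose, against 0.936% of all genes lower, and 43 were below 0, with a median of -0.47. Ifit3, which helps block foreign RNA, was at 6.64, 7.36 and 7.05 in fasted and at 8.38, 8.63, 8.35 and 8.25 in fed mice. Its log2 difference was -1.39 ± 0.16 (adjusted p = 0.0060 in limma). The guanylate-binding proteins Gbp2 (-1.07 ± 0.14), Gbp3 (-1.24 ± 0.22) and Gbp10 (-1.24 ± 0.16), the GTPase Iigp1 (-1.36 ± 0.27), Oasl2 (-1.15 ± 0.16), the immunoproteasome subunit Psmb8 (-0.69 ± 0.12) and Trim30a (-0.83 ± 0.15) also fell. Members of the Gbp family are similar in sequence, and whether their probes cross-hybridise was not tested. Without fed replicate 1 the median was -0.40 and 4 members fell. Of 14 genes of antigen presentation 13 were below 0 and 0 passed, with a median of -0.20, and H2-K1 among them had a log2 difference of -0.43 with an adjusted p of 0.16 in limma. Trim30a was named after its values were seen.

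The interferon-stimulated element, searched on both strands as TTTC and TTTC with 2 bases between them, occurred in 18 of 39 promoters of this list (46.2%), in 8 of 161 promoters of all genes that fell (4.97%) and in 508 of 17065 promoters of all genes tested (2.98%). Windows of Ifit3 (chr19:34583348-34583407, plus strand) and Gbp2 (chr3:142620579-142620638, plus strand), with the element in capitals, show it in members that fell.
Ifit3: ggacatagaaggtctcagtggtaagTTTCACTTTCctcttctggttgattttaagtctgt
Gbp2: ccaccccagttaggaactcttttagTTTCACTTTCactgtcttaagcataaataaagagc
Of the other 7 patterns searched, the forkhead pattern TGTTTAC occurred in 4.38% of promoters of genes that rose, 2.48% of those that fell and 2.97% of all. The E-box CACGTG occurred in 9.16%, 8.07% and 8.69%, and the sterol element TCACNCCAC in 1.2%, 1.86% and 1.25%. The STAT pattern TTCNNNGAA occurred in 7.97%, 6.21% and 7.36%, the cAMP element TGACGTCA in 2.79%, 1.86% and 2.5%, the ATF4 pattern TGATGNAA in 1.2%, 2.48% and 2.75%, and the heat shock pattern, TTC, GAA and TTC with 2 bases between each, in 0.398%, 0.0% and 0.51%.

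Microglial markers fell in part. In RNA of a whole hypothalamus, fewer cells of a type and less RNA per cell cannot be told apart. Of 20 measured markers of microglia, the resident macrophages of the brain, 7 fell (35.0%, against 0.936% of all genes) and 0 rose. The median was -0.45. Without fed replicate 1 the median was -0.39 and 5 members fell. The list score was -0.33 to -0.21 on the fasted and 0.14 to 0.31 on the fed arrays, with no overlap. P2ry12, the receptor by which resting microglia sense nucleotides, was at 6.75, 6.93 and 6.89 in fasted and at 7.75, 7.70, 7.88 and 7.78 in fed mice, a log2 difference of -0.92 ± 0.07. Ly86, the partner of the toll-like receptor relative CD180, was at 7.81, 7.93 and 7.88 against 8.96, 8.87, 8.87 and 8.98, a difference of -1.05 ± 0.06. Aif1 (-0.82 ± 0.08), Cx3cr1 (-0.71 ± 0.09), Trem2 (-0.66 ± 0.07) and Tyrobp (-0.52 ± 0.09) fell too, as did P2ry13. Other markers of the same cells did not pass. The log2 difference of the complement gene C1qb was 0.21 ± 0.12, with overlapping groups, that of the growth factor receptor Csf1r -0.22 ± 0.07 and that of Tmem119 -0.32 ± 0.14. These 3 and P2ry13 were named after their values were seen. Ptprc, the leukocyte antigen CD45, in the blood cell list, fell by 0.48 on the log2 scale.

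Oligodendrocyte genes split. Of 22 measured markers 2 rose and 4 fell (27.3% in either direction, against 2.36% of all genes), with a median of -0.10. Ugt8a, which makes the galactolipids of myelin, was at 9.67, 9.73 and 9.63 in fasted and at 10.61, 10.81, 10.75 and 10.67 in fed mice, a log2 difference of -1.03 ± 0.07 (adjusted p = 0.00039 in limma). Opalin, a membrane protein of mature oligodendrocytes, fell by 1.48, Car2, carbonic anhydrase, by 0.82 and Fa2h, which hydroxylates the fatty acids of myelin lipids, by 0.50 on the log2 scale. Hapln2, of the matrix at nodes of Ranvier, rose by 0.97 ± 0.15 and Cldn11, the tight junction protein of myelin, by 0.35 ± 0.07. Genes of the major myelin proteins did not pass: Mbp was at 12.97, 13.03 and 13.02 against 12.91, 12.96, 12.95 and 12.97, Mog differed by 0.05 ± 0.10 and Mag by -0.06 ± 0.07. Mbp, Mog and Mag were named after their values were seen, as were Pllp (-0.88), St18 (-0.94) and Padi2 (-0.91), which are also made by oligodendrocytes and fell. Pllp, St18 and Padi2 come from outside this list, so they do not stand for oligodendrocyte genes as a set. Of 9 markers of oligodendrocyte precursors 1 fell (11.1%, against 0.936% of all genes), the transcription factor Sox6 (-0.54 ± 0.08).

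Astrocyte markers leaned the other way, with 4 of 18 higher and 1 lower and a median of 0.10. These calls made up 27.8% of the list, against 2.36% of all genes. The list score was 0.09 to 0.17 on the fasted and -0.12 to -0.02 on the fed arrays. Gjb6, the gap junction protein connexin 30, was at 10.49, 10.50 and 10.73 in fasted and at 9.59, 9.79, 9.69 and 9.65 in fed mice, a rise of 0.89 ± 0.08, and it is also on the glucocorticoid list. Fgfr3 rose by 0.69 ± 0.06, the angiotensin precursor Agt by 0.56 ± 0.08 and the folate enzyme Aldh1l1 by 0.40 ± 0.06. Aqp4, the water channel of astrocyte end-feet, fell by 0.41 on the log2 scale. Gfap, chosen after its values were seen, was at 7.50, 7.0 and 7.83 against 7.49, 7.48, 7.41 and 7.18.

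Vessel and barrier genes also divided. Of 21 endothelial markers 2 rose, Slc2a1 and Mfsd2a, and 2 fell, Cav1 (-0.76 ± 0.10) and Tek (-0.83 ± 0.15). These calls made up 19.0% of the list, against 2.36% of all genes. Of its members 9 were above 0 and 12 below, with a median of -0.03. Mfsd2a, which carries docosahexaenoic acid as a lysolipid across the barrier, was at 9.42, 9.51 and 9.62 in fasted and at 7.73, 7.71, 7.39 and 7.34 in fed mice. Its rise of 1.97 ± 0.11 is part of the glucocorticoid list as well. Apln, the peptide apelin, was at 6.69, 6.75 and 6.86 in fasted and at 7.49, 7.53, 7.55 and 7.56 in fed mice, and fell by 0.77 on the log2 scale. Cd34 (-0.81), Podxl (-0.87), Cxcl12 (-0.93) and Mcam (-0.72), all made by vascular cells, fell too. These 5 are on no list and were named after their values were seen, so they do not stand for vascular genes as a set. Another probe set of Podxl differed by -0.01 (adjusted p = 0.95 in limma). Others of Cxcl12 differed by -0.25 and -0.49 without passing (adjusted p = 0.27 and 0.43 in limma). Ccn2, a matrix protein that cells secrete under mechanical and growth factor signals, rose by 1.98 ± 0.16.

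Markers of the ventricle wall gave single calls. Fabp7, a fatty acid binding protein of tanycytes and other radial glia, was at 9.34, 9.41 and 8.87 in fasted and at 10.77, 10.64, 10.59 and 10.81 in fed mice. Its log2 difference of -1.50 ± 0.13 was the largest fall of all genes past the threshold. Fabp7 was the 1 of 13 tanycyte markers to pass (7.69%, against 2.36% of all genes). The ependymal list held 1 call among 14 (7.14%), Dnaic1 (-0.45 ± 0.09). The list of pericytes and smooth muscle held 1 among 11 (9.09%), the receptor Notch3 (-0.32 ± 0.06). The choroid plexus, meninges, anterior pituitary, striatum and hypothalamus lists held 0 calls each. The cortex and hippocampus list had a median of -0.31, which was -0.04 without fed replicate 1, and its 1 call, Prox1 (-0.31 ± 0.06), had an adjusted p of 0.085 in limma without that array. The choroid plexus median was 0.15 and was 0.45 without that array. In the thalamus list 1 of 7 members fell (14.3%, against 0.936% of all genes), Lef1 (-0.54 ± 0.10). The part of tissue from neighbouring regions in the calls was not tested beyond these values.

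**Figure D4:**
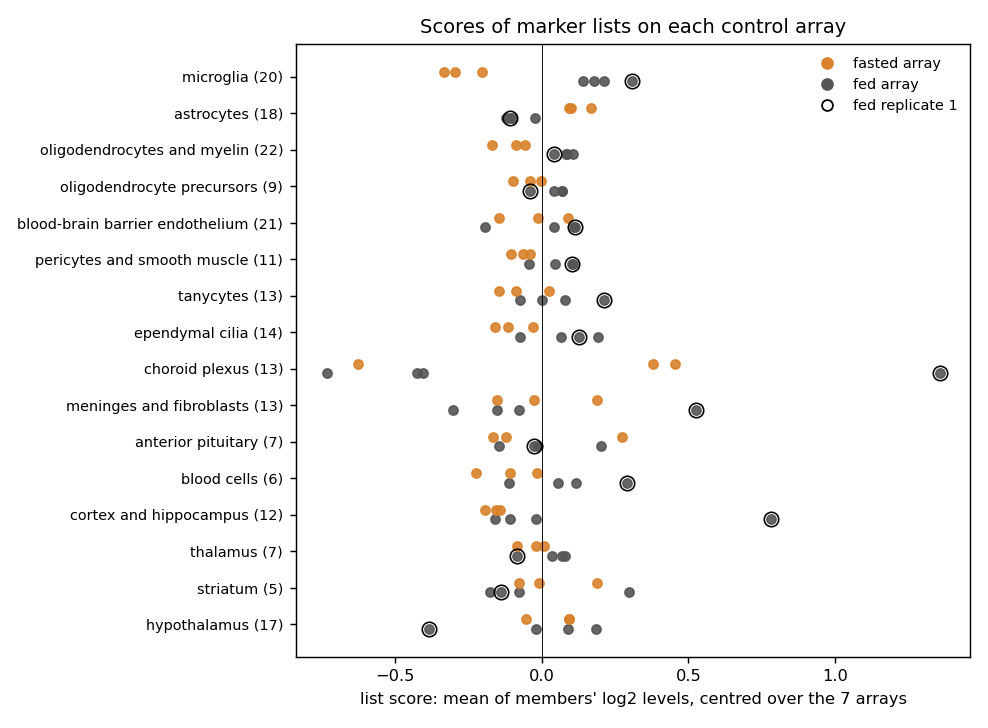
Scores of 16 marker lists on each control array, the mean of the members' log2 levels after each gene was centred over the 7 arrays, with the number of measured members in brackets. The microglia scores of fasted and fed arrays do not overlap (-0.33 to -0.21 against 0.14 to 0.31), and fed replicate 1, circled, is far from the other fed arrays in choroid plexus (1.36) and in cortex and hippocampus (0.78).

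Other probe sets of the same genes mostly had the same sign. Of the 404 genes, 185 had 301 further probe sets, of which 255 (84.7%) had the same sign, 79 had the same sign and passed in a fit over all probe sets, and 0 passed in the opposite direction. Their log2 differences were smaller, with a median ratio of 0.57 to the representative probe set. Opalin was among the exceptions in sign: its log2 difference was -1.48 by the brighter probe set and 0.14 by the other one, which did not pass (adjusted p = 0.64 in limma). Against the sign of the call, another probe set was at 0.13 for Wnt7a, -0.03 for Fzd4 and 0.03 for Rnf122. With the sign of the call but small, another was at -0.06 for Trem2, 0.07 for Angptl4 and -0.10 for Psmb8. None of these passed. In 16 adjacent pairs both genes passed in the same direction and in 4 in opposite directions, so 32 of 404 genes (7.92%) had such a neighbour. A neighbour called higher was found for 26 of the 244 higher genes (10.7%) and for 2.83% of all genes placed, and a neighbour called lower for 6 of the 160 lower genes (3.75%) and for 1.86% of all. The pairs included P2ry12 and P2ry13 on chromosome 3, and Kcna1 and Kcna5 on chromosome 6.

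The same contrast in the knockout arrays, which share no array with the controls, had the same direction for nearly all of these genes. Of the 404 genes 396 (98.0%) had the same sign, against 68.5% of all genes tested, and 300 (74.3%) also had an unadjusted p under 0.05 in limma, against 13%. An unadjusted p under 0.05 in either direction was reached by 14.6% of all genes tested in the knockout arrays. Only 9 of them passed the adjusted threshold there, out of 10 genes (0.0585%) that passed in the knockout arrays at all, among them Sult1a1 (2.09), Mfsd2a (1.72), Phyhd1 (1.26), Agt (0.56) and Cbs (0.56). The medians were 0.40 for the genes higher and -0.33 for those lower in fasted controls, against 0.56 and -0.50 in the control arrays on which they were chosen. Folh1, which rose by 0.61 in controls, was at 0.06 in the knockout arrays, Wipf1 was at 0.03, and Npy was at 0.44.

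The difference between the genotypes was tested as an interaction over all 14 arrays, and 0 of 17097 genes passed in limma. An unadjusted p under 0.05 was reached by 658 genes (3.85%). For Npy the knockout difference minus the control difference was -0.67 ± 0.28 (SE), and for Folh1 it was -0.55 ± 0.10, with adjusted p-values of 1.0 in limma.

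**Figure D5:**
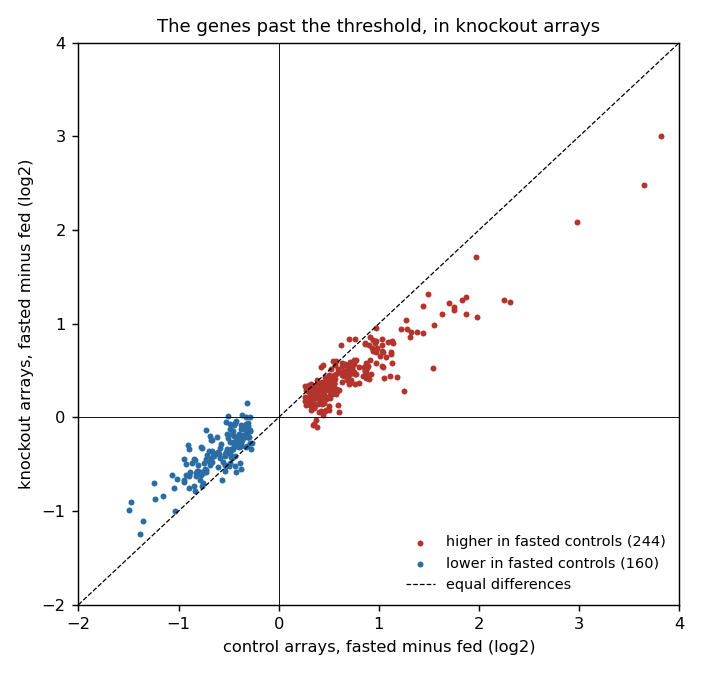
Each point is 1 of the 404 genes past the threshold in control mice, with its log2 difference between fasted and fed control arrays on the horizontal and between fasted and fed knockout arrays on the vertical axis; the dashed line marks equal differences. Of the points, 396 have the same sign in both, and 381 lie nearer to 0 on the vertical axis.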

How the data were processed

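The authors deposited log2 expression values. The submitters' processing notes name RMA and affy, without versions. RMA subtracts background, forces every array to 1 distribution and combines the probes of a set, which shrinks differences near background. For the probe sets, a genome build was not given in the sources used here. Values were used as deposited.

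Of 45141 probe sets, 28898 named 1 gene in the platform annotation, 551 several and 15692 none. Of the single names 99.3% matched the RefSeq table of GRCm38.p6 by gene ID. Each of 17097 genes was represented by its probe set with the highest mean over the 7 control arrays, and 7180 had more than 1. The contrast of 3 fasted minus 4 fed control arrays was fitted with limma 3.58.1 in R 4.3.3 (lmFit and eBayes, 5 residual and 3.06 prior degrees of freedom). Two-sided p-values were adjusted by the Benjamini-Hochberg method over all genes, with a threshold of 0.05, and errors of differences are standard errors. The knockout arrays were fitted alone, and the interaction over all 14 arrays. On simulated data with 200 of 17097 genes changed, the control contrast recovered 56.5% at a log2 change of 0.5 (2 false calls) and 93.5% at 1 (11 false calls). The simulated noise was normal and independent between genes, so it held no variation that many genes share on an array. Its false calls are therefore not an error rate of the real arrays. The number of arrays limits the precision, since arrays have no depth.

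The 45 pathway and 16 marker lists, with 1353 entries of which 1183 were measured, and the rule for naming genes were chosen with earlier results of these data known. Lists are described by counts and medians, with no test. The rule took the 10 largest changes per direction, the 10 smallest p per direction among calls under 0.5, up to 6 calls with the smallest p per list or, with fewer than 2 calls, the 2 with the smallest p, and single peptide genes and Nr3c1, Mfn1 and Mfn2; clone and model symbols are not named. Promoters came from the RefSeq table of GRCm38.p6, which held 17065 promoters of 13605 genes tested; genes without an entry were not searched. Alternatives were all 14 arrays, no genes from the lowest 40% by mean, averaging the probe sets of a gene, the probe set with the highest variance, a trended and robust prior, array weights, centring on medians, quantile normalisation again, a threshold of 0.10 and each array left out.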

Additional observations from a re-analysis of the deposited data

Results flagged for a closer look

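Among 240 values tested for an outlying array in the group of 4 control fed arrays (named genes and list scores), 8 (3.33%) had an array far from the other ones by Dixon's criterion, where chance gives about 1 in 20. Fed replicate 1 had the highest Fgfr3 (10.29) and Fzd4 (6.08), the lowest Agt (9.91), the highest choroid plexus score (1.36) and the highest cortex and hippocampus score (0.78). Fed replicate 4 had the lowest Cxcl12 (7.39) and the highest Pllp (9.55), and fed replicate 2 the lowest score of cholesterol synthesis (-0.059). Groups of 3 arrays were not tested in this way.

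Among 16139 probe sets that name no gene or several, which enter none of the comparisons, 80 (0.496%) passed an adjusted p of 0.05 in limma, with 59 higher and 21 lower in fasted control mice.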

How the results depend on the processing

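The number of genes past the threshold was 404 (244 higher, 160 lower). It was 774 with a trended and robust prior (418 and 356) and 807 at a threshold of 0.10 (425 and 382), and without the lowest 40% of genes 260 were lower. Of the 404 genes, 373 were among the 774. Leaving out 1 array gave 189 to 329 genes, 125 to 185 higher and 58 to 148 lower, and 183 to 252 of each set were among the 404. Centring the arrays turned the share higher from 60.4% to 66.0%. The other probe sets had the same sign in 96.9% with the mean of probe sets and in 84.7% to 92.3% with 1 array left out. The share of calls with a neighbour called alike was 2.94% to 6.69% with 1 array left out, that of calls with the same sign in knockout arrays 97.6% to 100%, and that of promoters with the receptor palindrome 3.03% to 4.29%. The interaction held 0 calls in each of the 12 alternatives run for it. Of 147 named genes past the threshold, 67 passed in every one of up to 16 alternatives. Dnaic1, Prox1, Iigp1, Nr3c1, Acacb, Tiparp, Errfi1, Ccng1, Ednrb, Sting1, Coro1a, Ptpn6, Notch3 and Car14 failed in most of theirs, and Prox1 was at 0.24 with the probe set of highest variance; the cause was not tested. Of 61 list medians, 28 moved by more than the spread between arrays in 1 or more alternatives. No paired analysis was possible because the numbers in the titles are all different and no label pairs the arrays. Signal near background limits the 3420 genes of lowest mean level, of which 0.0585% passed.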
